A study of Mus musculus with 2 samples.

Results

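The genes described here are 10 pluripotency genes, chosen by name from the 42422 genes of a count table of sorted mouse foetal germ cells: Pou5f1, Sox2, Nanog, Utf1, Dppa3, Dppa5a, Zfp42, Esrrb, Klf4 and Sall4. On GRCm39 (GENCODE M39) these are protein-coding genes on chromosomes 17 (Pou5f1), 3 (Sox2), 6 (Nanog and Dppa3), 7 (Utf1), 9 (Dppa5a), 8 (Zfp42), 12 (Esrrb), 4 (Klf4) and 2 (Sall4), with Nanog (ENSMUSG00000012396) at chr6:122679780-122691601 on the + strand and Utf1 (ENSMUSG00000047751) at chr7:139523649-139525025 on the + strand. All 10 had counts in each of the 40 libraries and all 10 passed the filter on low counts that left 15252 genes for testing. The germ cells came from wild type embryos at E12.5 (E, embryonic day), from Swiss females crossed with males that carried an Oct4(Pou5f1)-eGFP transgene on the inbred 129T2svJ background. Gonads were used at once (0 h) or were cultured with the mesonephros attached, and the mesonephros was removed before the cells were sorted. There were 10 groups of 4 libraries. XX germ cells were measured at 0 h, and after 24 h and 72 h with the vehicle DMSO. XY germ cells were measured at 0 h, and after 24 h and 72 h with DMSO, with 500 nM BGJ398/Infigratinib, an inhibitor of the FGF receptors (FGFRi), or with 500 nM PD0325901/Mirdametinib, an inhibitor of MEK1/2 (MEKi). All groups carried the same reporter and were sorted for its fluorescence, so the libraries were made from cells that the gate had kept for GFP.

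Pluripotent cells of the early embryo are kept undifferentiated by a small set of transcription factors, with POU5F1 (OCT4), SOX2 and NANOG at its centre, which bind their own and each other's genes. Germ cells of the foetal gonad express much of this network although they form only gametes, and they silence it as they differentiate. In the ovary this goes with entry into meiosis, and in the testis with mitotic arrest. MEK1/2 relays signals from receptors such as the FGF receptors, and its inhibition helps to hold embryonic stem cells in a naive state.

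RefSeq promoter windows (250 bases before to 50 bases after a transcription start, assembly GRCm38.p6) were at hand for 7 of the 10 genes, and each was placed on GRCm39 by an exact match that was unique on its chromosome. Those of Nanog and Utf1 are shown because these genes differed from DMSO in opposite directions after 72 h with MEKi. Sox2 had the lowest adjusted p there of the genes that did not pass, and the window of Zfp42 holds a full octamer. The windows are written 5′ to 3′ on the strand of the gene, with the letters of a searched motif in capitals. The Sox2 window ends before the GENCODE M39 start of Sox2 at chr3:34704554, and the Nanog window lies inside the M39 gene.
Nanog (chr6:122684198-122684497, + strand): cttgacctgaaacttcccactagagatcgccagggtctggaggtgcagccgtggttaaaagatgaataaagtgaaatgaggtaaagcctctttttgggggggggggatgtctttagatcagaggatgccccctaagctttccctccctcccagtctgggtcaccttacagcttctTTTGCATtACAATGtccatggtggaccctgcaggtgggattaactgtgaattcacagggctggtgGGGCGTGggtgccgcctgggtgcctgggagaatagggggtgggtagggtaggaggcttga
Zfp42 (chr8:43759997-43760296, - strand): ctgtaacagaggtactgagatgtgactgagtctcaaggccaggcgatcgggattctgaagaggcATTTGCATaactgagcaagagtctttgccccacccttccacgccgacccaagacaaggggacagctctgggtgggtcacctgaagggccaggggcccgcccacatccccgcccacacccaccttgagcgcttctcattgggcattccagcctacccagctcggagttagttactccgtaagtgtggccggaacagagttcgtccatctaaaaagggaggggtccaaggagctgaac
Sox2 (chr3:34703894-34704193, + strand): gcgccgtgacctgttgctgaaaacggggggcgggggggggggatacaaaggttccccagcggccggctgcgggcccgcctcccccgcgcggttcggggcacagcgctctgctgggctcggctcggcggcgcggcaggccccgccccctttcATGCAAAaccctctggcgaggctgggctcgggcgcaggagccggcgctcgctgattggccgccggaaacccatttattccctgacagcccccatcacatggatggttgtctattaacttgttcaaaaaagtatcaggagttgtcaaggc
Utf1 (chr7:139523519-139523818, + strand): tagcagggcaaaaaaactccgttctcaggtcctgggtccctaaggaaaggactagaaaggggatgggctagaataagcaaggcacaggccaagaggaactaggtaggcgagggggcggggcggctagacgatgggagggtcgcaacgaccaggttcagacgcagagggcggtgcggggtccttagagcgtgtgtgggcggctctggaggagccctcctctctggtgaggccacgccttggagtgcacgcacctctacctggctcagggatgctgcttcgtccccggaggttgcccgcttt

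The motifs searched, on both strands, were the octamer ATGCAAAT bound by POU factors, its first 7 letters ATGCAAA (added after the windows were seen), the SOX core ACAATG, the KLF motif GGGCGTG, the estrogen-related receptor motif TCAAGGTCA and the E-box CACGTG. The ATGCAAA letters lie inside the octamer, so a window with the octamer counts for both. In the Nanog window the reverse complement of ATGCAAA stood 1 base before ACAATG, and GGGCGTG followed nearer the start. Over 32851 RefSeq windows, ATGCAAA was found in 4.63%, the octamer in 1.74%, ACAATG in 12.6%, GGGCGTG in 8.44%, TCAAGGTCA in 0.423% and CACGTG in 7.15%. The 7 genes had 10 windows, of which those of Nanog overlap each other. ATGCAAA was in 4 of them, the octamer in 1 (Zfp42), ACAATG in 4, GGGCGTG in 2 (both of Nanog), CACGTG in 1 (Klf4) and TCAAGGTCA in 0. The Utf1 window held none of these letters, which says nothing of sites outside it.

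Values are CPM (counts scaled to a fixed library total) after TMM scaling, given as mean ± SD of 4 libraries, and changes are log2 fold changes with their standard error. A gene passed the test where limma put its change beyond 1.5-fold at a Benjamini-Hochberg adjusted p under 0.05 over all genes tested. Shares of all genes are given for this test. They were not taken for other tools or settings, so member counts under those stand alone. The libraries held between 1178953 and 5199153 counts. They were made in 2 pools of 20, the first with both 0 h groups and the 24 h groups other than FGFRi, the second with 24 h FGFRi and all 72 h groups. Comparisons of 72 h with 0 h and of 24 h FGFRi with 24 h DMSO therefore compare pools as well, and pool and condition cannot be told apart there. The 6 germ cell markers (Ddx4, Dazl, Dnd1, Mael, Tfap2c and Kit) summed to 1557 to 2591 CPM in every library, and none was at 0 in any group. Single markers moved within this sum. The mean of Tfap2c went from 126 CPM in XX 0 h and 58.3 CPM in XY 0 h to 3.63 and 7.44 CPM after 72 h with DMSO, that of Kit from 137 and 125 to 25.9 and 26.0 CPM, and that of Dnd1 in XX from 170 to 14.7 CPM, while Ddx4 and Mael had higher means after 72 h in both sexes. The 13 markers of gonadal somatic cells summed to 22.2 to 149 CPM, and 9 markers of blood to 17.6 to 498 CPM with the highest values in XY 24 h MEKi. In such bulk libraries fewer cells expressing a gene and less RNA per cell cannot be told apart.

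**Figure D1:**
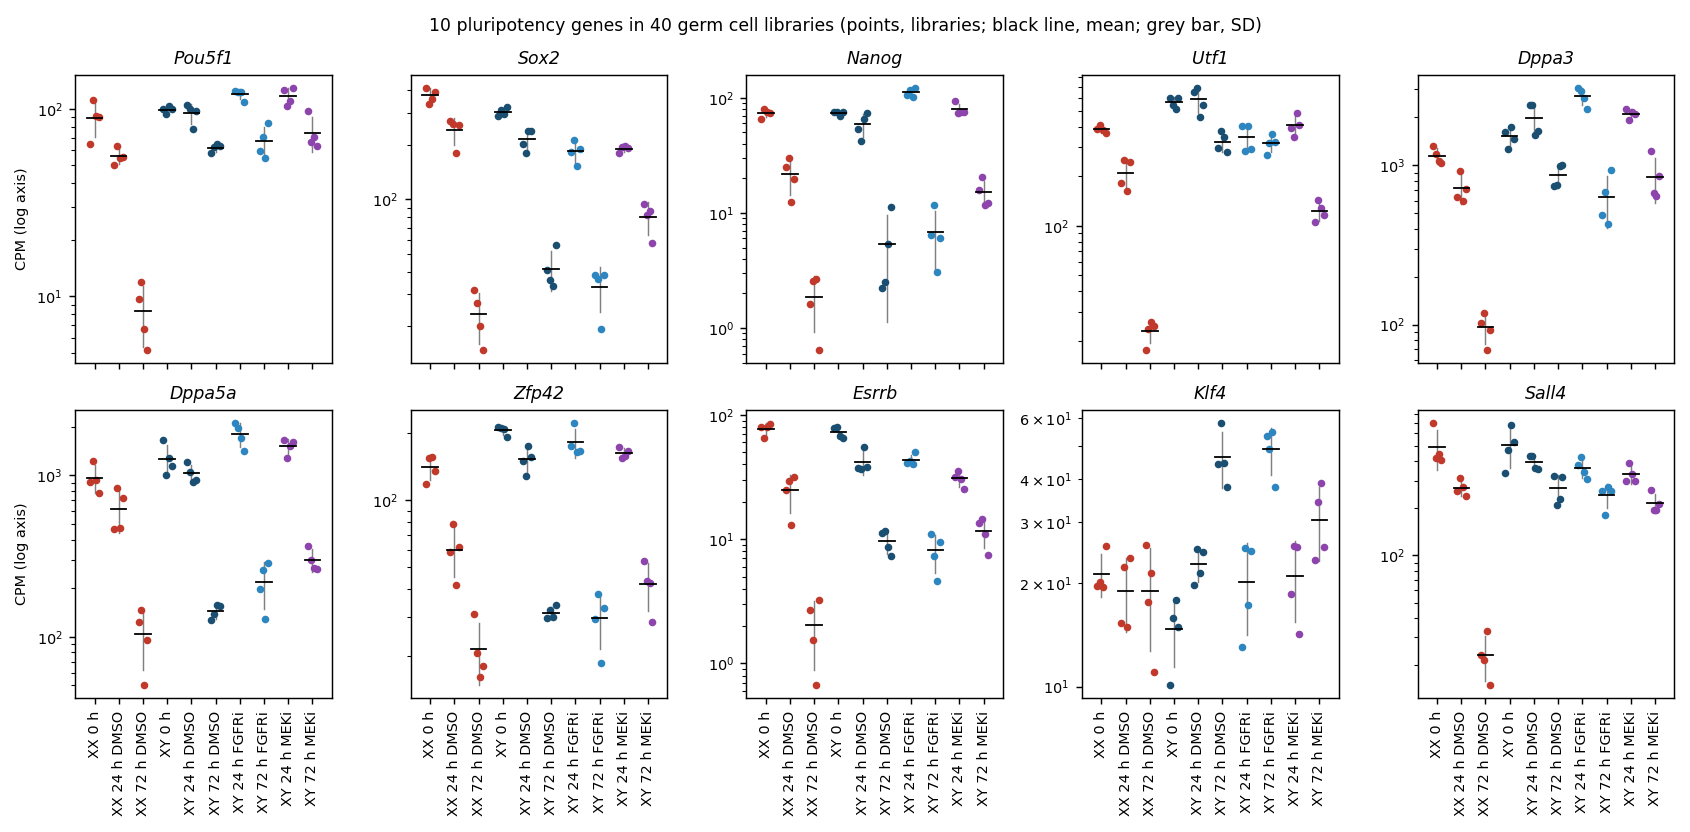
Each panel plots 1 gene, with CPM on a log axis and the 10 groups along the other axis. Points are libraries, black lines group means and grey bars SDs. The XX 72 h libraries sit below all other groups' libraries for Pou5f1, Utf1, Dppa3, Esrrb and Sall4, while Klf4 is highest in the XY 72 h groups.

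In E12.5 germ cells that had not been cultured, no gene of the 10 passed the test between the sexes, against 1.34% of all genes tested that were higher and 1.65% that were lower in XY. No member had an unadjusted p under 0.05 in this comparison either, against 1245 of all genes tested, and edgeR and DESeq2 called 0. Nanog, the homeobox factor of the naive state, had 65.7, 79.2, 74.5 and 74.1 CPM in the XX libraries and 74.6, 74.4, 69.5 and 74.9 CPM in the XY libraries. These libraries overlapped, and the 95% interval of the log2 difference ran from -0.29 to 0.27. The estimates furthest from 0 were those of Utf1 (0.54, interval 0.32 to 0.77), Zfp42 (0.52, interval 0.29 to 0.75) and Klf4 (-0.57, interval -1.03 to -0.11), whose libraries did not overlap between the sexes but whose difference did not pass the 1.5-fold test. The Sox2 libraries did not overlap either, with the higher values in XX. The share of all genes whose libraries did not overlap was not taken, here or in later comparisons.

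In XX germ cells 9 of the 10 genes fell over 72 h of culture with DMSO, to between 2.56% and 15.2% of their 0 h means. Across all genes, 18.4% were lower and 18.8% higher in this comparison. The members' median log2 fold change was -3.75, against -0.01 over all genes tested. Klf4 was the exception. This Krüppel-like factor, used in reprogramming, was at 21.2 ± 2.99 CPM at 0 h and 18.9 ± 6.24 CPM after 72 h, a log2 change of -0.29 (interval -0.78 to 0.21). In XX the 13 somatic markers summed to 26.8 to 60.1 CPM at 0 h and 86.7 to 133 CPM at 72 h. The 9 blood markers summed to 34.3 to 52.8 CPM and 17.6 to 28.9 CPM. The part of such cells in these changes was not tested.

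Of the central factors, Nanog had the lowest share left. In XX 72 h DMSO it was at 1.61, 2.58, 2.68 and 0.647 CPM, or 1 to 5 counts a library. All 4 were far below the XX 0 h libraries given above, with a log2 fold change of -5.34 ± 0.54 (adjusted p = 5.5e-11). Sox2, the SRY-box partner of POU5F1, went from 412, 336, 359 and 390 CPM to 31.6, 26.8, 20.1 and 14.9 CPM. The groups did not overlap and Sox2 fell by 4.00 on the log2 scale (adjusted p = 3.2e-20). Pou5f1 went from 65.0, 112, 91.2 and 90.6 CPM to 9.64, 11.9, 6.69 and 5.18 CPM, again without overlap (log2 fold change -3.45 ± 0.28, adjusted p = 8.3e-13). The cells had been sorted on a reporter driven by Oct4 sequences, so this fall was measured within cells that the gate had kept for GFP.

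Esrrb, Sall4 and Utf1 fell as well. Esrrb, an orphan nuclear receptor of the naive network, went from 77.6 ± 8.32 to 2.03 ± 1.15 CPM (log2 fold change -5.06 ± 0.46, adjusted p = 1.9e-12), with 1 to 5 counts in each 72 h library. Sall4, a zinc finger factor that primordial germ cells also need, went from 492 ± 139 to 23.1 ± 7.38 CPM (-4.42 ± 0.28, adjusted p = 1.3e-17). Utf1, a chromatin-associated factor of undifferentiated cells, went from 386 ± 17.6 to 23.0 ± 3.70 CPM (-4.09 ± 0.22, adjusted p = 4.5e-20). For all of these the lowest 0 h library was above the highest 72 h library.

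Dppa3 (Stella), a maternal factor that guards DNA methylation and marks early germ cells, fell by 3.51 on the log2 scale in XX germ cells (adjusted p = 2.5e-18). Dppa5a, a KH-domain protein of pluripotent and germ cells, fell by 3.16 (adjusted p = 3.1e-16). Zfp42 (Rex1), a zinc finger marker of the naive state, fell by 2.71 (adjusted p = 3.9e-13) and kept the largest share of the 9, 15.2%. Dppa3 and Zfp42 have near-identical processed copies in the genome that also took counts. Dppa3-ps held 8.31% to 12.96% of the counts of the pair and Zfp42-ps1 17.6% to 23.5% of theirs over the groups, so how reads were split between gene and copy is uncertain. Adding the copies' counts changed no call of either gene in any comparison, an alternative chosen after the counts were seen.

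The fall in XX germ cells was already under way at 24 h. Nanog was at 24.9, 29.8, 12.4 and 19.6 CPM, between its 0 h and 72 h libraries and overlapping neither. Nanog (log2 fold change -1.75 ± 0.20, adjusted p = 3.3e-05), Esrrb (-1.60 ± 0.17, adjusted p = 3.0e-05) and Zfp42 (-1.22 ± 0.14, adjusted p = 0.0018) passed the test, 3 of 10 lower and 0 higher, against 0.911% and 2.32% of all genes. Both time points of this comparison were in the same pool. The other 7 had negative estimates that did not pass, from -0.83 (Utf1, interval -1.08 to -0.58) to -0.17 (Klf4, interval -0.62 to 0.28). With the fold threshold applied to the estimate rather than tested, 8 of the 10 were called, but no share of all genes was taken.

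In XY germ cells the same 72 h of culture split the genes into 3 sets. Sox2, Nanog, Dppa5a, Zfp42 and Esrrb fell, Klf4 rose, and Pou5f1, Utf1, Dppa3 and Sall4 were left at 53.2% to 62.6% of their 0 h means, without passing the test. The 5 lower and 1 higher stand against 15.2% and 20.2% of all genes tested. Nanog went from the XY 0 h values above to 2.24, 2.51, 5.33 and 11.3 CPM (log2 fold change -4.16 ± 0.37, adjusted p = 4.9e-12). Sox2 went from 287, 308, 295 and 322 CPM to 40.7, 35.9, 33.3 and 56.4 CPM (-2.91 ± 0.16, adjusted p = 4.6e-18). In both genes every 72 h library was below every 0 h library.

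Dppa5a fell by 3.08 (adjusted p = 3.4e-17), Esrrb by 2.86 (adjusted p = 1.9e-11) and Zfp42 by 2.72 (adjusted p = 3.6e-16) on the log2 scale in XY germ cells. Pou5f1 was at 99.6, 93.6, 103 and 99.2 CPM at 0 h and at 57.7, 62.3, 64.6 and 63.0 CPM after 72 h. The groups did not overlap, yet the change of -0.67 (interval -0.93 to -0.41, adjusted p = 0.51) did not pass the 1.5-fold test. Utf1 (-0.80, interval -1.03 to -0.57), Dppa3 (-0.79, interval -1.09 to -0.49) and Sall4 (-0.88, interval -1.17 to -0.59) likewise had no overlap between 0 h and 72 h libraries and did not pass it. Applied to the estimate alone, the same fold called all 10 genes, and edgeR called 8, with Utf1 and Sall4 added. No share of all genes was taken under either rule. Sall4 (adjusted p = 0.064) also passed when any one of XY 0 h replicates 2 and 3 and XY 72 h DMSO replicates 2 and 6 was left out, with an adjusted p from 0.0040 to 0.048.

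Klf4 rose in XY germ cells, from 10.1, 15.8, 17.8 and 14.9 CPM at 0 h to 44.3, 58.1, 44.6 and 37.8 CPM after 72 h with DMSO. Every 72 h library was above every 0 h library (log2 fold change 1.66 ± 0.22, adjusted p = 2.3e-05). Klf4 is also known in endothelial cells and macrophages. The endothelial marker Cdh5 had a mean of 2.41 CPM in XY 0 h and of 9.72 CPM in XY 72 h DMSO, and the macrophage marker Cd68 at 2.07 and 13.3 CPM. Kdr, another endothelial gene, was at 1.23 and 1.34 CPM, and Ptprc of white blood cells at 0.0648 and 0.271 CPM. Adgre1, another macrophage marker, had 0 counts in every library of both groups. The 13 somatic markers summed to 55.3 to 128 CPM at 0 h and 85.7 to 131 CPM at 72 h, and the 9 blood markers to 51.7 to 381 CPM and 38.9 to 95.5 CPM. The part of such cells in the Klf4 counts was not tested.

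At 24 h none of the 10 genes had passed the test in XY germ cells with DMSO against 0 h, where 1.61% of all genes were higher and 1.33% lower. An unadjusted p under 0.05 was reached by 1 member and by 1247 of all genes tested, and edgeR and DESeq2 called 0. Esrrb had the lowest estimate, from 78.1, 80.2, 67.7 and 65.4 CPM to 37.3, 37.0, 55.4 and 38.1 CPM (log2 fold change -0.85, interval -1.15 to -0.56, adjusted p = 0.51), with no overlap between the groups.

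**Figure D2:**
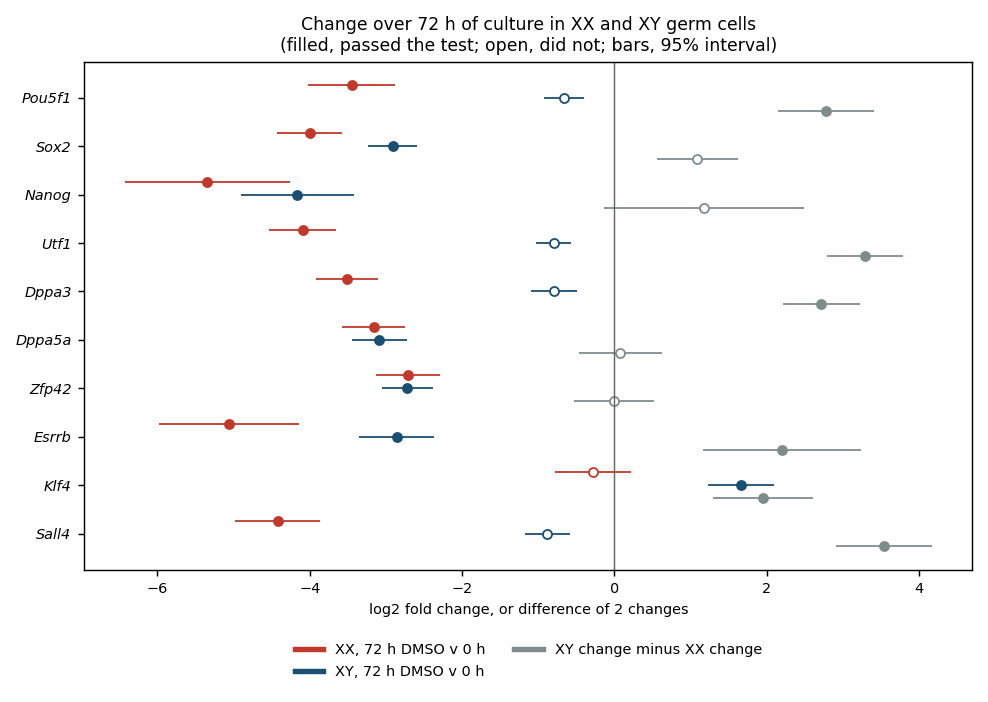
Log2 fold changes from 0 h to 72 h of culture with DMSO in XX and XY germ cells and the difference between these changes, with 95% intervals. Filled points passed the test. Pou5f1, Utf1, Dppa3 and Sall4 lie between -0.67 and -0.88 in XY and between -3.45 and -4.42 in XX, while Zfp42 lies at -2.72 in XY and -2.71 in XX.

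The difference between the sexes in this change was tested directly. It passed for 6 genes, all with the higher value in XY: Sall4 (3.54 ± 0.31, adjusted p = 3.4e-11), Utf1 (3.29 ± 0.25, adjusted p = 4.1e-13), Pou5f1 (2.78 ± 0.31, adjusted p = 7.5e-08), Dppa3 (2.72 ± 0.25, adjusted p = 7.6e-10), Esrrb (2.20 ± 0.52, adjusted p = 0.0077) and Klf4 (1.95 ± 0.33, adjusted p = 5.2e-04). Across all genes, 16.0% had a higher and 12.9% a lower change in XY. The Dppa3 call was lost without the filter on low counts (adjusted p = 0.061). A shift common to a pool cancels in this difference. For Dppa5a (0.08, interval -0.47 to 0.63) and Zfp42 (-0.01, interval -0.54 to 0.52) the intervals lie on both sides of 0. Sox2 (1.09, interval 0.55 to 1.63, adjusted p = 0.095) and Nanog (1.18, interval -0.14 to 2.49, adjusted p = 0.39) did not pass.

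The sexes were also compared directly at each time. After 24 h with DMSO, 4 were higher in XY than in XX and 0 lower, against 4.00% and 5.99% of all genes. They were Nanog (1.49 ± 0.21, adjusted p = 6.4e-04), Utf1 (1.41 ± 0.13, adjusted p = 1.1e-06), Dppa3 (1.39 ± 0.16, adjusted p = 1.6e-04) and Zfp42 (1.32 ± 0.15, adjusted p = 1.0e-04). Nanog was at 53.9, 42.2, 66.0 and 73.3 CPM in these XY libraries, all above the XX libraries at 24 h. After 72 h, 6 were higher in XY and 0 lower, against 22.8% and 18.1%. These were Utf1 (3.84 ± 0.22, adjusted p = 1.4e-18), Sall4 (3.64 ± 0.28, adjusted p = 9.1e-14), Dppa3 (3.12 ± 0.21, adjusted p = 1.2e-15), Pou5f1 (2.88 ± 0.29, adjusted p = 1.3e-09), Esrrb (2.12 ± 0.50, adjusted p = 0.0055) and Klf4 (1.37 ± 0.24, adjusted p = 0.0025).

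Nanog and Zfp42, higher in XY at 24 h, no longer passed at 72 h. Nanog at 72 h had a log2 difference of 1.17 (interval -0.11 to 2.45) and Zfp42 one of 0.52 (interval 0.04 to 0.99), and the libraries of the sexes overlapped for both. The Klf4 call rested in part on 1 library. Without XX 72 h DMSO replicate 8, the lowest of its group with 17 counts, its adjusted p was 0.053 (log2 difference 1.08). Cdh5 had a mean of 9.72 CPM in XY 72 h DMSO and of 0.268 CPM in XX 72 h DMSO, and Cd68 of 13.3 and 1.03 CPM. Kdr had means of 1.34 and 0.425 CPM, and Adgre1 had 0 counts in both groups. Ptprc was lower in XY than in XX, at means of 0.271 and 0.593 CPM. In XX 0 h the mean of Cdh5 was 0.658 CPM and that of Cd68 2.31 CPM. Their part in the Klf4 difference, or in that of its change over 72 h, was not tested.

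Inhibition of the FGF receptors moved none of the 10 genes past the test. At 24 h, 0.131% of all genes were higher and 0.131% lower with FGFRi than with DMSO, and at 72 h 0.00656% were higher and 0% lower. An unadjusted p under 0.05 was reached by 1 member and 394 of all genes at 24 h and by 0 members and 89 genes at 72 h. edgeR and DESeq2 called 0 members at both times. Nanog at 24 h was at 106, 116, 102 and 122 CPM with FGFRi, above all 4 DMSO libraries at 42.2 to 73.3 CPM (log2 fold change 0.84, interval 0.54 to 1.14, adjusted p = 1.0). Dppa5a (0.81, interval 0.50 to 1.13) and Utf1 (-0.75, interval -0.99 to -0.51) also had no overlap with DMSO, as had Pou5f1 (0.33, interval 0.08 to 0.58). Nanog, Dppa5a and Utf1 were called when the fold was applied to the estimate alone, a rule without a share of all genes here. The FGFRi libraries of 24 h came from the other pool than the DMSO libraries.

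At 72 h, where FGFRi and DMSO shared a pool, the libraries overlapped for all 10 genes. Nanog was at 6.43, 11.6, 3.09 and 6.04 CPM with FGFRi (log2 fold change 0.76, interval -0.08 to 1.61). Sox2 was at 38.2, 36.6, 19.3 and 38.4 CPM (-0.25, interval -0.62 to 0.12) and Utf1 at 271, 321, 360 and 324 CPM (-0.06, interval -0.29 to 0.18). Dppa3 had an estimate of -0.53 (interval -0.85 to -0.22) and Dppa5a one of 0.57 (interval 0.18 to 0.97).

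Inhibition of MEK1/2 for 24 h also moved none of the 10 genes past the test, against 0.0525% of all genes higher and 0.111% lower. An unadjusted p under 0.05 was reached by 0 members and 352 of all genes, while edgeR and DESeq2 called 0. Both groups came from the same pool. Dppa5a was at 1513 ± 172 CPM with MEKi and 1026 ± 131 CPM with DMSO (log2 fold change 0.59, interval 0.28 to 0.90), without overlap. Nanog with MEKi was at 93.8, 74.4, 74.6 and 74.5 CPM (0.36, interval 0.06 to 0.67), also above every DMSO library, and Esrrb was below every DMSO library (-0.42, interval -0.77 to -0.06).

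After 72 h with MEKi, Nanog was higher and Utf1 lower than with DMSO, 1 gene in each direction against 4.01% and 5.11% of all genes tested. Nanog was at 15.9, 20.4, 11.7 and 12.1 CPM with MEKi against the 2.24 to 11.3 CPM of the DMSO libraries. The groups did not overlap, but the highest DMSO library, at 11.3 CPM, was close to the lowest MEKi library, at 11.7 CPM. The log2 fold change was 1.80 ± 0.39 (adjusted p = 0.019). This call rested on few counts, 5 to 17 in each DMSO library. It was lost without XY 72 h DMSO replicate 2 (adjusted p = 0.15) or replicate 4 (adjusted p = 0.12), without XY 72 h MEKi replicate 3 (adjusted p = 0.060) and without the filter on low counts (adjusted p = 0.12), and over all settings tried the adjusted p ran from 1.2e-04 to 0.15.

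Utf1 was at 105, 143, 129 and 116 CPM with MEKi and at 296, 378, 346 and 281 CPM with DMSO after 72 h. The groups were far apart (log2 fold change -1.36 ± 0.12, adjusted p = 2.5e-06), and this call held under every setting tried. Sox2 was at 94.8, 82.5, 86.2 and 57.2 CPM with MEKi, all above the DMSO libraries, the nearest at 56.4 CPM. Its change of 0.98 (interval 0.65 to 1.32, adjusted p = 0.095) did not pass. Dppa5a, at 367, 300, 266 and 263 CPM against 126, 138, 158 and 155 CPM, had an estimate of 1.02 (interval 0.64 to 1.39, adjusted p = 0.11) and did not pass either. edgeR called both of these as well, 4 genes in all, and Dppa5a was also called in a fit to only the groups compared (adjusted p = 0.0037). Neither setting has a share of all genes beside it.

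The other 6 genes did not pass the 1.5-fold test after 72 h with MEKi, and their libraries overlapped with those of DMSO. Pou5f1 was at 97.8, 66.2, 70.6 and 63.1 CPM (log2 fold change 0.21, interval -0.05 to 0.46), with the reporter gate again in force. Sall4 (-0.35, interval -0.64 to -0.05), Klf4 (-0.49, interval -0.82 to -0.17), Dppa3 (-0.15, interval -0.45 to 0.16), Zfp42 (0.39, interval 0.04 to 0.74) and Esrrb (0.19, interval -0.36 to 0.74) did not pass. Klf4 was at 23.3, 34.2, 39.05 and 25.5 CPM, and Cdh5 was at a mean of 1.81 CPM with MEKi against 9.72 CPM with DMSO. The mean of Cd68 was 6.34 CPM with MEKi against 13.3 CPM with DMSO, and that of Kdr 1.21 against 1.34 CPM. Ptprc had the higher mean with MEKi, 0.422 against 0.271 CPM. Adgre1 had at most 1 count in any library of these groups. The part of such cells was not tested here either.

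**Figure D3:**
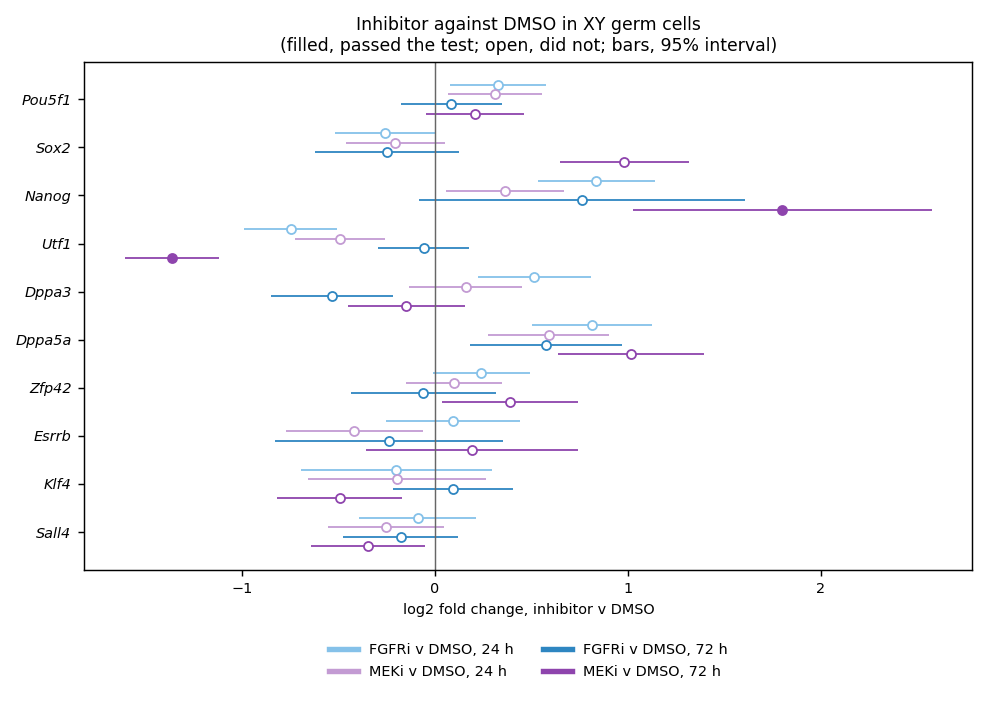
Log2 fold changes of inhibitor against DMSO in XY germ cells at 24 h and 72 h, with 95% intervals. Filled points passed the test, and only Nanog (1.80) and Utf1 (-1.36) with MEKi at 72 h did.

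Set against FGFRi at 72 h, MEKi left Sox2 higher (log2 fold change 1.23 ± 0.15, adjusted p = 9.6e-04) and Utf1 lower (-1.30 ± 0.12, adjusted p = 5.0e-06), 1 gene in each direction against 5.71% and 6.98% of all genes. All 4 Sox2 libraries with MEKi were above all 4 with FGFRi, and the Sox2 call was lost without the filter on low counts (adjusted p = 0.15). Nanog (1.04, interval 0.49 to 1.58, adjusted p = 0.26) did not pass, although its libraries did not overlap, and edgeR called it (adjusted p = 0.043). These 2 comparisons at 72 h share the MEKi libraries. Whether the MEKi effect differed between 72 h and 24 h was tested as well, and 0 of the 10 genes passed, against 1.21% of all genes with a higher and 0.675% with a lower effect at 72 h. In that test 3 members and 1490 genes reached an unadjusted p under 0.05, while edgeR and DESeq2 called 0. The difference was 1.19 for Sox2 (interval 0.77 to 1.61, adjusted p = 0.11), 1.44 for Nanog (interval 0.61 to 2.27, adjusted p = 0.34) and -0.87 for Utf1 (interval -1.21 to -0.53, adjusted p = 0.50).

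XY germ cells kept for 72 h in MEKi were not at the level of uncultured XY germ cells. Against XY 0 h, 8 genes were lower and 1 higher, against 8.83% and 15.1% of all genes, in a comparison across pools. Nanog stood at 20.5% of its 0 h mean (log2 fold change -2.36 ± 0.18, adjusted p = 8.4e-12), Sox2 at 26.5% (-1.93 ± 0.12, adjusted p = 2.3e-13) and Utf1 at 21.9% (-2.16 ± 0.12, adjusted p = 1.9e-16). With DMSO these shares were 7.28%, 13.7% and 57.7%. Esrrb (-2.67), Zfp42 (-2.33), Dppa5a (-2.07), Sall4 (-1.22) and Dppa3 (-0.94) were lower too, and Klf4 higher (1.17 ± 0.21, adjusted p = 0.018). The Dppa3 call (adjusted p = 0.042) was lost in 12 of the 18 other settings and the Klf4 call in 7 of 17. Pou5f1 did not pass (-0.46, interval -0.69 to -0.23).

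Against XX germ cells after 72 h with DMSO, the MEKi-treated XY cells had 8 of the 10 genes higher and 0 lower, against 17.2% and 12.8% of all genes, within a pool. The range ran from 3.30 ± 0.28 for Sall4 (adjusted p = 7.3e-12) to 1.46 ± 0.21 for Dppa5a (adjusted p = 4.2e-04), whose call was lost without the filter on low counts (adjusted p = 0.37). Nanog was higher by 2.97 ± 0.55 (adjusted p = 2.6e-04) and Sox2 by 1.79 ± 0.22 (adjusted p = 6.9e-06), both of which had not passed between XY and XX cells in DMSO. These comparisons share the XX libraries. Zfp42 (0.91, interval 0.47 to 1.34) and Klf4 (0.88, interval 0.42 to 1.34) did not pass.

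The order of the group means differed from gene to gene. Nanog was highest in XY 24 h FGFRi (111 ± 9.41 CPM), followed by XY 24 h MEKi (79.3 ± 9.66), XX 0 h (73.4 ± 5.58), XY 0 h (73.3 ± 2.57) and XY 24 h DMSO (58.9 ± 13.7). Each of the last 4 of these overlapped with the next among the 4, while XY 24 h FGFRi did not overlap with XY 24 h MEKi, nor XY 24 h DMSO with XX 24 h DMSO. XX 24 h DMSO (21.7 ± 7.46), XY 72 h MEKi (15.0 ± 4.05), XY 72 h FGFRi (6.79 ± 3.54), XY 72 h DMSO (5.34 ± 4.20) and XX 72 h DMSO (1.88 ± 0.952) followed. XX 24 h DMSO overlapped with XY 72 h MEKi, and XY 72 h DMSO with the groups on either side of it, while XY 72 h MEKi and XY 72 h FGFRi did not overlap. Sox2 was highest in XX 0 h (374 ± 33.4 CPM) and then XY 0 h (303 ± 15.2), which did not overlap. Utf1 was highest in XY 24 h DMSO (588 ± 105 CPM) and XY 0 h (563 ± 45.4), which did, and lowest in XY 72 h MEKi (123 ± 16.5) and XX 72 h DMSO (23.0 ± 3.70), each apart from its neighbour. Dppa3 was highest in XY 24 h FGFRi, at 2728 ± 348 CPM, apart from the next group. Pou5f1 was highest in the same group, at 120 ± 7.18 CPM, but overlapped there with XY 24 h MEKi. XY 24 h FGFRi was in another pool than the other 24 h groups. Pool and condition cannot be told apart in ranks across pools.

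Over the 40 libraries, the genes whose log2 CPM ran closest to that of Nanog were Kank1 (Pearson r = 0.968), Trp53 (r = 0.967) and Ifitm3 (r = 0.962). For Sox2 they were Nid2 (r = 0.970), Mycn (r = 0.963) and Ube2c (r = 0.961), and for Pou5f1 Eif4ebp1 (r = 0.955), Anp32e (r = 0.955) and Psmb5 (r = 0.954). The libraries share groups and pools, so these values describe the pattern over groups and are not independent points. Mycn, a growth-promoting factor, is also on the wider list of pluripotency genes below.

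Of 37 other genes of the pluripotency network (28 naive or general, 9 primed, that is, of the epiblast), 30 passed the filter. Over 72 h with DMSO, 21 of the 30 were lower and 2 higher in XX germ cells, and 17 lower and 3 higher in XY. Over all genes tested, 18.4% were lower and 18.8% higher in XX, and 15.2% lower and 20.2% higher in XY. The median log2 fold change was -2.90 in XX and -1.70 in XY, against -0.01 and 0.06 over all genes tested. For the 23 naive or general genes it was -3.06 and -1.74, and for the 7 primed genes -1.35 and -0.37. L1td1, an RNA-binding protein of stem cells, fell by 5.36 in XX (adjusted p = 1.6e-12) and by 6.86 in XY (adjusted p = 1.7e-16). Tdgf1, the Nodal co-receptor, stood at 34.8 ± 4.30 CPM in uncultured XY cells and at 2.39 ± 0.778 CPM in uncultured XX cells (3.75 ± 0.38, adjusted p = 6.3e-09), and fell by 6.10 in XY over 72 h (adjusted p = 8.0e-11). Gdf3, a TGF-beta family ligand whose gene overlaps the start of Dppa3 on the opposite strand, fell by 5.25 in XX (adjusted p = 3.4e-09).

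Dppa4, a DNA-binding partner of Dppa2, took another course. After 72 h with DMSO it had 26.9 ± 6.16 CPM in XX and 794 ± 81.9 CPM in XY cells, higher by 4.87 ± 0.19 in XY (adjusted p = 4.8e-26), and its change over 72 h differed between the sexes by 4.65 ± 0.22 (adjusted p = 7.0e-22). Lifr, the receptor for LIF, had 87.4 ± 17.3 CPM in the XY and 7.95 ± 0.837 CPM in the XX libraries of that time (3.37 ± 0.28, adjusted p = 2.1e-12). In the 24 h inhibitor comparisons Tdgf1 was the one gene of the 30 that passed, lower with FGFRi (0.743 ± 1.16 CPM) than with DMSO (9.23 ± 4.07 CPM; -3.57 ± 0.64, adjusted p = 0.0082), across pools. It did not pass here with MEKi, within a pool. The paper lists Tdgf1 as lower with both inhibitors at 24 h.

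After 72 h with MEKi, 6 of the 30 were higher and 2 lower than with DMSO, against 4.01% and 5.11% of all genes. The 3 primed genes that were higher with MEKi than with DMSO were Otx2, a homeobox factor (3.18 ± 0.48, adjusted p = 4.4e-05), Sox3, a close relative of Sox2 (1.92 ± 0.24, adjusted p = 2.5e-05), and Pou3f1, a POU factor of the epiblast (1.86 ± 0.26, adjusted p = 1.5e-04). Gdf3 was higher as well (1.57 ± 0.32, adjusted p = 0.024). The 2 lower genes, named here after their values were seen, were Dppa4 (-1.45 ± 0.10, adjusted p = 1.1e-09) and Lifr (-1.26 ± 0.13, adjusted p = 8.8e-05). Otx2 stood at 12.6 ± 2.65 CPM with MEKi and 1.31 ± 0.542 CPM with DMSO, while XY 0 h was at 37.3 ± 7.79 CPM. Sox3, by contrast, was at 3.14 ± 0.442 CPM in XY 0 h, 7.55 ± 1.73 CPM with DMSO and 27.9 ± 5.13 CPM with MEKi. The effect of MEKi at 72 h less that at 24 h passed for both, by 3.59 ± 0.51 for Otx2 (adjusted p = 1.1e-04) and 3.45 ± 0.50 for Sox3 (adjusted p = 1.2e-04), and for Mycn and Sall1 among the naive or general genes (1.76 ± 0.22 and 1.84 ± 0.33, adjusted p = 5.5e-04 and 0.017). In the other direction Dppa4 passed, by -1.16 ± 0.15 (adjusted p = 0.013), also named after its values were seen. These 4 higher and 1 lower stand against 1.21% and 0.675% of all genes.

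**Figure D4:**
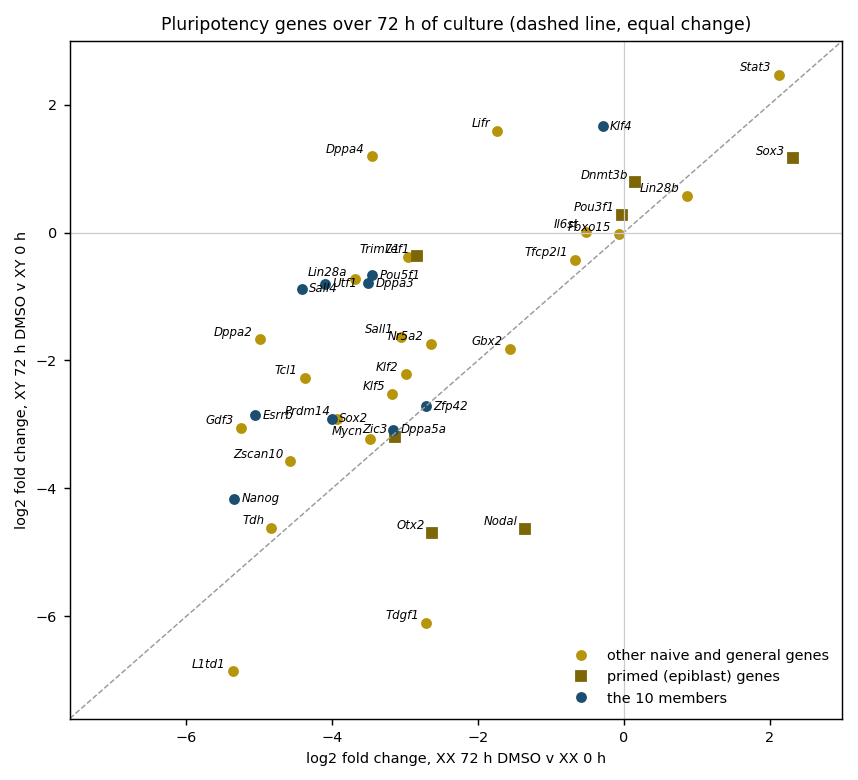
Log2 fold change over 72 h of culture with DMSO in XX germ cells on the horizontal axis and in XY germ cells on the vertical axis, for the 10 genes described here and 30 other pluripotency genes. The dashed line marks equal change. Dppa4, Lifr and Klf4 have positive values in XY and negative values in XX, Zfp42 and Dppa5a lie close to the line, and Tdgf1, Nodal, Otx2 and L1td1 lie below it.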

How the data were processed

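RNA of FACS-isolated germ cells was primed at poly(A) with a sample index and sequenced in 2 pools of 20 libraries. The authors deposited a table of raw counts per gene for 40 libraries, on GRCm39, with strand-aware counting, and an index sheet. Library names gave sex, time, treatment and replicate. Gene names were taken from GENCODE M39 (40391 of 42422 IDs matched; 1.05% of counts were in unmatched IDs).

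Counts were filtered with edgeR 4.0.16 (15252 genes, 99.2% of counts), TMM-scaled and tested in limma 3.58.1 under R 4.3.3 (voom with library weights, all 40 libraries, treat at a fold of 1.5, Benjamini-Hochberg adjusted p under 0.05), as in the study's methods. The step was tested on simulated data. Alternatives used an untested fold, DESeq2 1.42.0, edgeR, other scaling and filtering, a replicate block, and each library left out. Another took 3.25% of a second-pool library's counts from the first-pool library with the same index, in 16 such pairs. This share was estimated from Y-linked genes in XX libraries. The 10 genes and the lists were chosen with earlier results of these data known. Other named genes were, for each comparison, up to 4 of the wider list with the largest change among those that passed, and the 3 genes most like Pou5f1, Sox2 and Nanog. Libraries are pools of several embryos' gonads. P-values measure the spread between libraries.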

Additional observations from a re-analysis of the deposited data

Results flagged for a closer look

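Over the 72 h of culture with DMSO, the change from 0 h differed between XY and XX germ cells for 6 genes, by a test of the difference itself in limma. The differences on the log2 scale were 3.54 for Sall4, 3.29 for Utf1, 2.78 for Pou5f1, 2.72 for Dppa3, 2.20 for Esrrb and 1.95 for Klf4, each with the higher value in XY.

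In 7 of 100 sets of 4 libraries (10 genes in 10 groups) 1 library stood apart from the other 3 by Dixon's criterion. Chance alone flags about 1 in 20 such sets. Sox2 in XX 24 h DMSO replicate 6 was at 179 CPM, against 255 to 269 CPM in the others. Sox2 in XY 72 h FGFRi replicate 5 was at 19.3 CPM, against 36.6 to 38.4 CPM. Nanog in XY 0 h replicate 5 was at 69.5 CPM, against 74.4 to 74.9 CPM. Nanog in XY 24 h MEKi replicate 1 was at 93.8 CPM, against 74.4 to 74.6 CPM. Esrrb in XY 24 h DMSO replicate 4 was at 55.4 CPM, against 37.0 to 38.1 CPM. Klf4 in XX 0 h replicate 5 was at 25.6 CPM, against 19.4 to 20.1 CPM. Sall4 in XX 0 h replicate 2 was at 699 CPM, against 405 to 444 CPM.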

How the results depend on the processing

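Of 160 results (10 genes in 16 comparisons), 55 passed the test. No estimate that passed changed sign under any setting. With the fold applied to the estimate rather than tested, the members called rose to 7 between the sexes at 24 h, 2 in XY and 8 in XX from 0 h to 24 h, 10 in XY from 0 h to 72 h, 3 for FGFRi and 1 for MEKi at 24 h, 4 for MEKi against DMSO and 4 against FGFRi at 72 h, and 3 for the change of the MEKi effect. Smaller rises were to 7 between the sexes at 72 h, 10 for 72 h MEKi against XX 72 h DMSO and 7 for the sex difference of the 72 h change. For MEKi against DMSO at 72 h, edgeR called 4, and without the filter on low counts 1 was called both there and against FGFRi. Leaving out each library gave 1 to 3 members for MEKi against DMSO at 72 h and 0 to 1 for the change of the MEKi effect (Sox2, without XY 72 h DMSO replicate 6 or MEKi replicate 5). It also gave 5 to 6 between the sexes at 72 h, 6 to 7 in XY from 0 h to 72 h, 7 to 9 for 72 h MEKi against XY 0 h and 6 to 7 for the sex difference of the 72 h change (Sox2 added without XX 72 h DMSO replicate 11), and the same count throughout in the other comparisons. No share of all genes was taken under these settings, so these counts are no result about the members. The cause of these moves was not tested.

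Replicate numbers did not pair the libraries: of 106 pairs with the same number, 2 had a correlation of deviations over 0.1. With the replicate block, 5 members were called for 72 h MEKi against XX 72 h DMSO in place of 8, without Nanog (adjusted p = 0.14), Dppa5a (adjusted p = 0.33) and Esrrb (adjusted p = 0.061). The block also ended the calls of Esrrb in the sex difference of the 72 h change (adjusted p = 0.062) and, for 72 h MEKi against XY 0 h, of Dppa3 (adjusted p = 0.21) and Klf4 (adjusted p = 0.13), and it added Dppa5a for MEKi against DMSO at 72 h (adjusted p = 0.034).

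Estimates that did not pass changed sign 48 times. Without the filter these were Pou5f1 (-0.020) and Sall4 (-0.0027) between the sexes at 0 h, Utf1 in XY at 24 h (-0.00049), Esrrb with FGFRi at 24 h (-0.0053), Utf1 with FGFRi at 72 h (0.042), Zfp42 in the sex difference of the 72 h change (0.078), and Pou5f1 (0.019) and Sall4 (0.061) in the change of the MEKi effect. Zfp42 in that sex difference was also 0.011 without library weights and 0.0086 with shared index counts subtracted. With the block they were Nanog (0.025) and Esrrb (0.029) between the sexes at 0 h, Dppa5a at 72 h (-0.10), Pou5f1 in XY at 24 h (0.034), Klf4 with MEKi at 24 h (0.11), Dppa5a (-0.37) and Zfp42 (0.13) in the sex difference, and Pou5f1 in the change of the MEKi effect (0.0058). With the copies' counts added, Zfp42 with FGFRi at 72 h was 0.040. With each library left out in turn, sign changes fell within these ranges: between the sexes at 0 h -0.038 to 0.018 for Nanog and -0.029 to 0.26 for Sall4, in the sex difference -0.10 to 0.22 for Zfp42 and -0.12 to 0.30 for Dppa5a, in XX at 72 h -0.53 to 0.0043 for Klf4, in XY at 24 h -0.077 to 0.040 for Pou5f1 and -0.044 to 0.15 for Utf1, with MEKi -0.043 to 0.30 at 24 h and -0.29 to 0.081 at 72 h for Dppa3, in the change of the MEKi effect -0.23 to 0.030 for Sall4, with FGFRi at 72 h -0.12 to 0.049 for Utf1 and -0.20 to 0.12 for Zfp42, and MEKi against FGFRi -0.012 to 0.18 for Pou5f1.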
